A study of Mus musculus with 2 samples.

Results

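The collagen family was described in YTN16, a mouse gastric cancer cell line, by poly(A) RNA sequencing of 2 cultures. Collagens were taken as the protein-coding genes whose symbol has the form Col, a type number, the letter a and a chain number, which gave 44 of the 45777 genes in the deposited table. The shGas6 culture carried a short hairpin RNA (shRNA) against Gas6, a secreted ligand of the AXL receptor, and its genotype is labelled Gas6 knockdown. The shControl culture carried a control hairpin and its genotype is labelled WT. Both were grown in serum-containing medium without other cells or a tumour host. Whether either culture was a clone or a pool, and which hairpin sequence was used, is not given in the sources used here. With 1 library per group no difference below has a replicate check, and no p-value is given.

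Collagens are matrix proteins built from trimers of chains with repeated Gly-X-Y triplets. Fibrillar collagens form the load-bearing fibrils of connective tissue, type IV collagens form the network of basement membranes, FACIT collagens (fibril-associated collagens with interrupted triple helices) sit on fibril surfaces, and transmembrane collagens span the cell membrane. In the stomach most fibrillar collagen is made by stromal fibroblasts, whereas epithelial cells contribute to the basement membrane beneath them. Many types need chains from more than 1 gene, so the level of each chain is given below beside that of its partners.

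The libraries held 51807140 counts in shGas6 and 50756676 in shControl. Gas6 had 731 counts in shGas6 and 2480 in shControl, or 14.1 and 48.8 CPM (the count scaled to the TMM-adjusted size of its library), a level 3.45-fold lower in shGas6 with a 95% counting interval of 3.18 to 3.75. This and every interval below covers counting error only. Of the epithelial keratins, Krt8, Krt18 and Krt19 were abundant. They were between 1488 and 4419 TPM (the authors' unit that also corrects for transcript length) in shGas6 and between 600.6 and 3025 TPM in shControl. Krt7 was less abundant, at 27.4 TPM in shGas6 and 2.83 TPM in shControl, 9.28-fold higher in shGas6 (7.66 to 11.3). Cdh1 was 1.95-fold higher in shGas6 (1.89 to 2.02). All 5 epithelial markers that passed 1 CPM were higher in shGas6, from 1.41-fold (Krt19) to 9.28-fold (Krt7). The epithelial markers Epcam, Cldn4 and Cldn7, by contrast, were at 0.492 TPM or less in shGas6 and 0.588 TPM or less in shControl. All 8 markers of that list summed to 9034 TPM in shGas6 and 5649 TPM in shControl. Of 9 fibroblast markers, only Twist2 passed 1 CPM, at 31.4 TPM in shGas6 and 53.3 TPM in shControl. Lum, Dpt, Thy1 and Pi16 had 0 counts in both libraries, and Dcn had 0 counts in shGas6 and 4 in shControl. The fibroblast list summed to 31.9 TPM in shGas6 and 53.5 TPM in shControl, nearly all of it Twist2. The leukocyte list of 6 markers summed to 0.320 TPM in shGas6 and 0.380 TPM in shControl, with Tyrobp at 0 in both. The endothelial list of 6 summed to 2.38 TPM in shGas6 and 6.54 TPM in shControl. Cdh5 was at 1.89 and 5.87 TPM, 3.17-fold lower in shGas6, and Vwf had 9 and 76 counts, 8.59-fold lower. Pecam1 had 29 counts in shGas6 and 30 in shControl, Emcn had 4 and 0, and Kdr and Tek had 0 in both. The list of 6 pericyte and smooth muscle markers summed to 17.8 TPM in shGas6 and 15.7 TPM in shControl, mostly Acta2. Rgs5 had 21 counts in shGas6 and 143 in shControl, 6.93-fold lower in shGas6, and Des, under 1 CPM, had 22 and 0. Of 6 chondrocyte and osteoblast markers, Sox9 was detected, at 2.01 TPM in shGas6 and 4.17 TPM in shControl, and the other 5 had 0 counts in both.

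Most of the collagen family had 0 counts or stayed under 1 CPM, as did most genes of the deposited data. Of the 44 genes, 9 had 0 counts in both libraries, and 20 were detected but stayed under 1 CPM in both. The other 15 reached 1 CPM in at least 1 library and are called measured here. Of all 45777 genes, coding or not, 22544 had at least 1 count and 13367 were measured. Of the 15, 13 were at 1 CPM or more in both libraries. Col14a1 and Col4a2 passed the mark in shGas6 alone, so their inclusion already depended on a higher level there. Counted at a 2-fold difference, 3 of the 15 were higher in shGas6 (Col14a1, Col4a2 and Col6a2) and 1 was lower (Col15a1), against 8.64% and 6.19% of all 13367 measured genes. Among the 13 at 1 CPM or more in both libraries, 1 was higher (Col6a2) and 1 was lower (Col15a1) by that size. The matching share over all genes at 1 CPM or more in both libraries was not computed, so these counts have no comparator. For Col14a1 and Col4a2 the whole counting interval lay beyond 2-fold higher, as it did for 6.55% of all measured genes. For 0 of the 15 it lay wholly beyond 2-fold lower, against 4.46% of all measured genes. The counting interval lay above 1 for 5 of the 15, below 1 for 9, and included 1 for Col1a1. Over all measured genes it lay above 1 for 39.2% and below 1 for 40.3%. The median log2 ratio (shGas6 over shControl) of the 15 was -0.34, against -0.01 over all measured genes. In bulk RNA, fewer cells of a kind and less RNA per cell cannot be told apart.

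**Figure D1:**
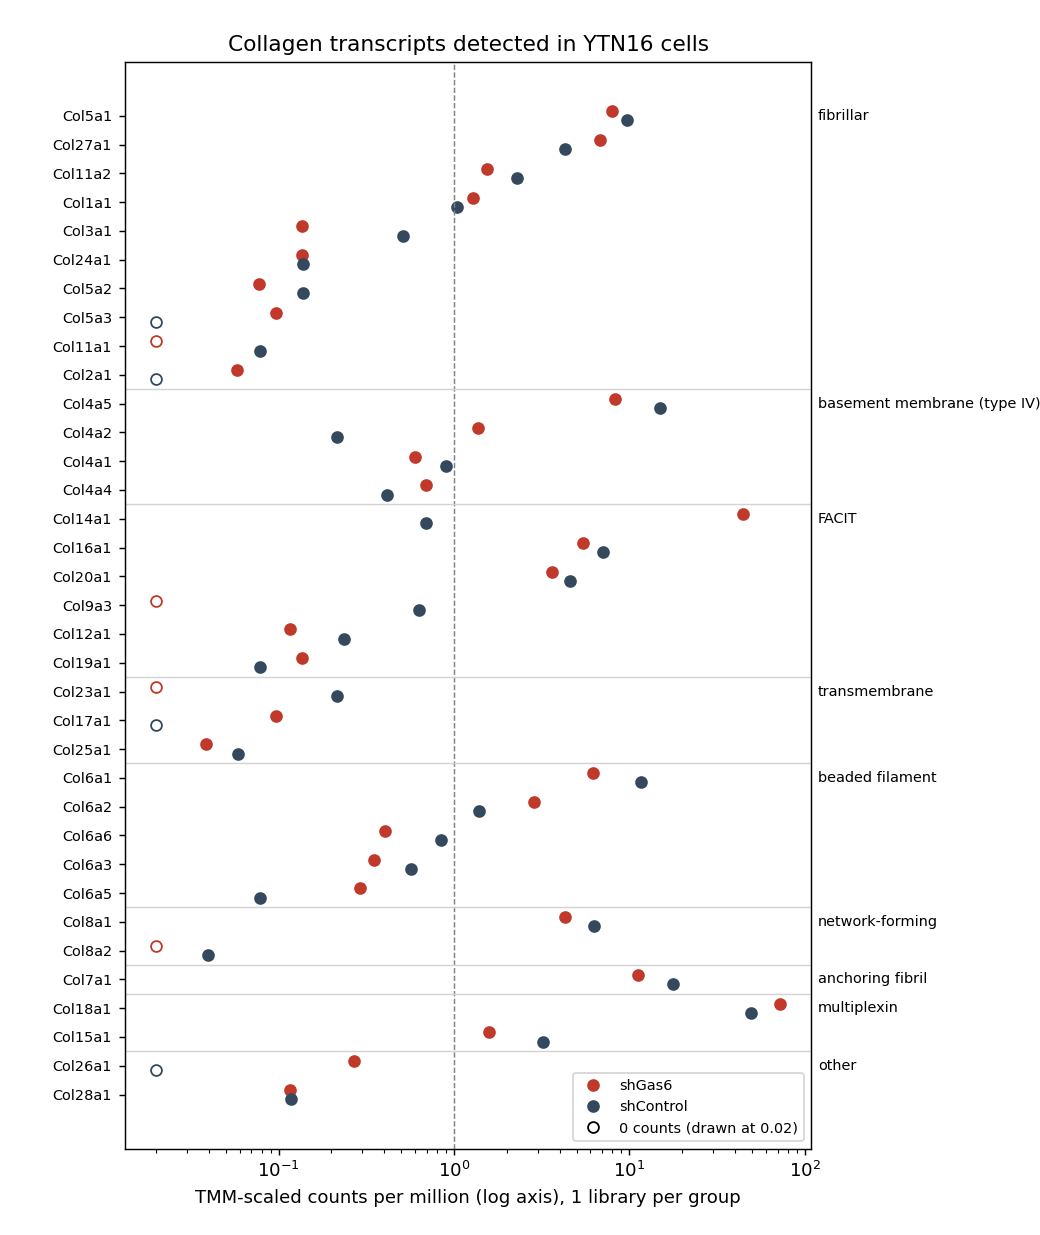
TMM-scaled CPM (log axis) of the 35 collagen genes with at least 1 count, by class, with shGas6 in red above shControl in dark blue; open circles mark 0 counts and the dashed line 1 CPM. Col14a1 stood at 44.2 CPM in shGas6 and 0.688 CPM in shControl, while 20 genes lay left of the line in both libraries.

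**Figure D2:**
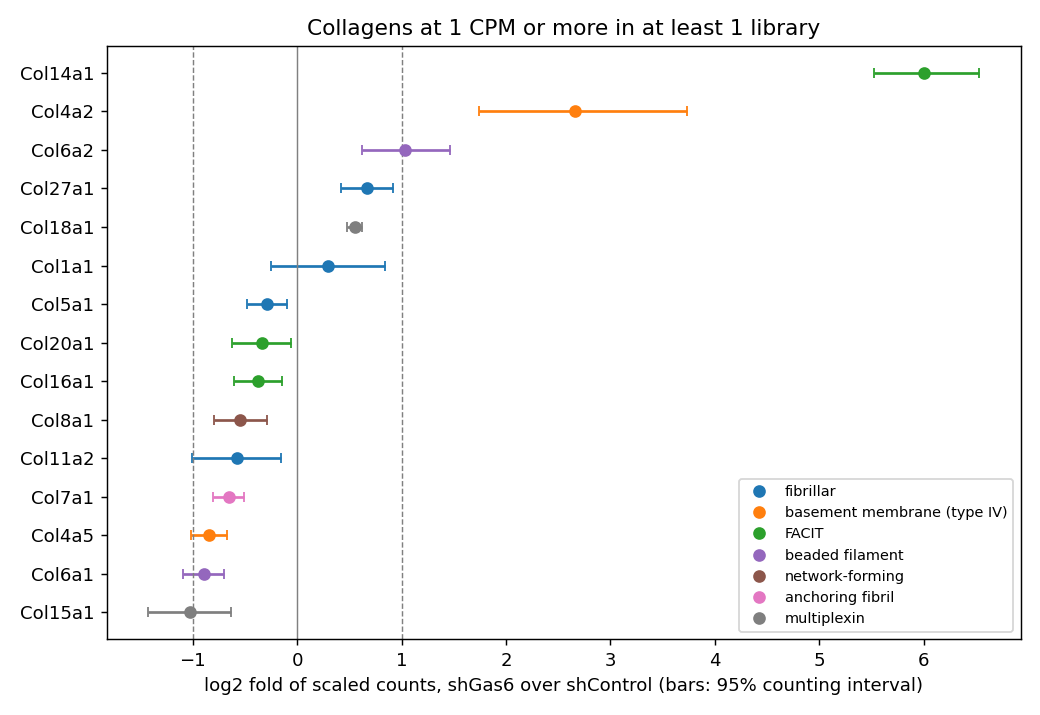
Log2 fold of scaled counts, shGas6 over shControl, of the 15 measured collagens, coloured by class, with 95% counting intervals as bars, a solid line at no difference and dashed lines at 2-fold. Col14a1 and Col4a2 lay beyond 2-fold with their whole interval, and the intervals of 9 genes lay left of the solid line.

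Per transcript length, the collagen messages of both libraries were led by Col18a1, and in shGas6 Col14a1 came next. Summed over all 44 genes the deposited values came to 65.2 TPM in shGas6 and 47.8 TPM in shControl, and the summed counts to 183 CPM and 139.5 CPM, 1.31-fold higher in shGas6 (1.27 to 1.35). In CPM that difference was Col14a1: without it the collagens summed to 138.6 CPM in shGas6 and 138.8 CPM in shControl, a ratio of 0.998 (0.966 to 1.03). In TPM the sums without Col14a1 were 51.0 in shGas6 and 47.6 in shControl, a ratio of 1.07. Col18a1 made up 44.3% of the collagen TPM in shGas6 and 39.7% in shControl. Col14a1 made up 21.7% in shGas6 and 0.441% in shControl. With both set aside, the other 42 genes were 1.35-fold lower in shGas6 (1.29 to 1.41), at 66.3 CPM in shGas6 and 89.5 CPM in shControl. Above 1 TPM stood 11 collagens in shGas6 and 10 in shControl, and above 10 TPM only Col18a1 and Col14a1 in shGas6 and Col18a1 in shControl.

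**Figure D3:**
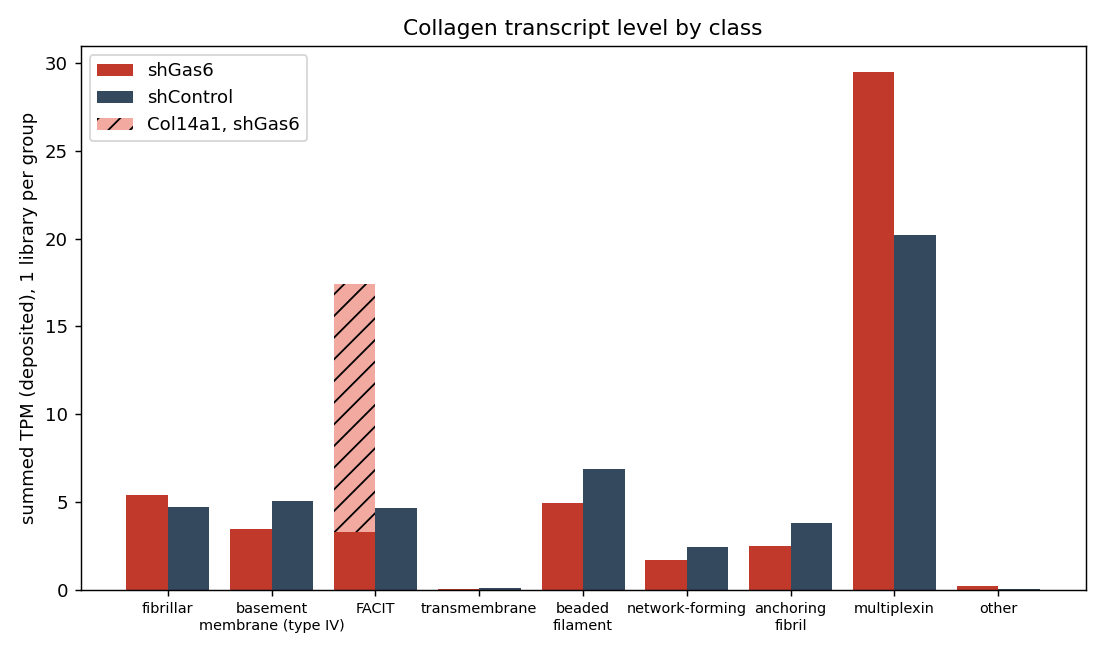
Summed deposited TPM of each collagen class in shGas6 (red) and shControl (dark blue), 1 library each, with the hatched segment showing Col14a1 in shGas6. The FACIT class summed to 17.4 TPM in shGas6 and 4.68 TPM in shControl, of which Col14a1 was 14.1 and 0.211 TPM.

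FACIT collagens held the largest difference of the family, and it was confined to 1 of the 3 measured members. Col14a1 encodes the chain of type XIV collagen, which binds to the surface of type I collagen fibrils in tendon and skin. It lies on chromosome 15 (GRCm38, 55307644 to 55520803) and had 2286 counts in shGas6 and 35 in shControl, or 14.1 and 0.211 TPM. The level was 64.2-fold higher in shGas6 (46.0 to 92.4), which placed it 36th among the 13367 measured genes by log2 ratio. The FACIT chains Col16a1 and Col20a1 had a counting interval on the other side. Col16a1 had 283 counts in shGas6 and 360 in shControl, 1.29-fold lower (1.10 to 1.52), and Col20a1 had 188 and 234, 1.27-fold lower (1.04 to 1.54). Without Col14a1 the class was 1.35-fold lower in shGas6 (1.20 to 1.52). Per length, Col14a1 was thus 6.40 times the level of Col16a1 in shGas6 and 0.0775 times that level in shControl.

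The genes around Col14a1 did not share its size of difference. The 10 nearest measured genes, 5 on each side, had log2 ratios from -3.42 to 1.11 with a median of 0.26, and 1 was at least 2-fold higher and 1 at least 2-fold lower. The median of all 533 measured genes of chromosome 15 was also 0.26. Among fibroblast markers, Pdgfra had 43 counts in shGas6 and 10 in shControl, 4.23-fold higher (2.09 to 9.43). Pdgfrb had 21 and 6, 3.44-fold higher (1.34 to 10.4), and Fap had 4 and 0, all under 1 CPM. Twist2 was 1.76-fold lower in shGas6 (1.63 to 1.90), and Dcn had 0 counts in shGas6 and 4 in shControl. Lum, Dpt, Thy1 and Pi16 stood at 0 in both libraries. Which cells of the culture made the Col14a1 transcripts was not tested.

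Of the cartilage-associated type IX chains, which are FACITs too, only Col9a3 was detected, with 0 counts in shGas6 and 32 in shControl. That is at least 10.9-fold lower in shGas6, taking a floor of 3 counts (0.0580 CPM in shGas6 and 0.0590 CPM in shControl) in place of 0. Its partners Col9a1 and Col9a2 had 0 counts in both libraries. Col12a1 had 6 counts in shGas6 and 12 in shControl, and Col19a1 had 7 and 4, with counting intervals that included 1. Col22a1 was at 0 in both.

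Basement membrane collagen was represented mainly by the alpha 5 chain. Col4a5, whose chain assembles with the alpha 3 and alpha 4 or with the alpha 6 chains, had 431 counts in shGas6 and 759 in shControl, or 2.62 and 4.59 TPM. It was 1.79-fold lower in shGas6 (1.59 to 2.02). Its partners were scarce: Col4a3 and Col4a6 had 0 counts in both libraries, and Col4a4 had 36 counts in shGas6 and 21 in shControl. Col4a6 and Col4a5 lie head to head on the X chromosome with 1274 bases between them, and only Col4a5 was transcribed at a detectable level. The class summed to 3.43 TPM in shGas6 and 5.03 TPM in shControl.

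Col4a1 and Col4a2, the chains of the type IV trimer found in nearly all basement membranes, were low in both libraries, and only the Col4a2 interval excluded 1. Col4a2 had 71 counts in shGas6 and 11 in shControl, or 0.434 and 0.0663 TPM, 6.35-fold higher in shGas6 (3.34 to 13.3). Col4a1 had 31 counts in shGas6 and 46 in shControl, or 0.181 and 0.270 TPM, with a ratio of 0.662 and a counting interval that included 1 (0.406 to 1.07). Col4a2 was therefore 2.39 times Col4a1 per length in shGas6 and 0.246 times Col4a1 in shControl. The genes are transcribed away from each other on chromosome 8 and their annotated spans overlap by 85 bases in RefSeq, so reads from that stretch could count for either if strand was not used. The RefSeq start sites used here enclose 22 bases, and the stretch from the Col4a2 start at 11312805 to the Col4a1 start at 11312826 (chr8:11312805-11312826, plus strand, GRCm38.p6, RefSeq) is shown because transcription of both genes begins at its ends. Capitals mark a GC box.
Col4a2 and Col4a1 starts: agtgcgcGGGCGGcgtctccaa
GC boxes were searched as GGGCGG and CCGCCC, and 4.09% of 32851 RefSeq windows of the same 22 bases after a start held one. The 10 measured genes nearest to Col4a2, leaving out collagens, had log2 ratios from -0.67 to 3.64 with a median of 0.01.

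In beaded-filament type VI collagen, the ratios of the partner chains Col6a1 and Col6a2 lay on opposite sides of 1, and both counting intervals excluded 1. Col6a1 and Col6a2 encode chains that need each other and a further chain to form the microfibrils that link cells to the matrix. In mouse the further chain comes from Col6a3, Col6a4, Col6a5 or Col6a6. Col6a1 had 322 counts in shGas6 and 589 in shControl, or 3.20 and 5.78 TPM, and was 1.86-fold lower in shGas6 (1.62 to 2.14). Col6a2 had 148 counts in shGas6 and 71 in shControl, or 1.5 and 0.734 TPM, and was 2.05-fold higher in shGas6 (1.53 to 2.76). Per length, Col6a2 was 0.468 times Col6a1 in shGas6 and 0.127 times Col6a1 in shControl. These further chains were all under 1 CPM. Col6a3 had 18 counts in shGas6 and 29 in shControl, and its interval included 1. Col6a6 had 21 and 43, 2.08-fold lower (1.21 to 3.70), and Col6a5 had 15 and 4, 3.69-fold higher (1.17 to 15.3). Col6a4 had 0 counts in both libraries.

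Col6a1 and Col6a2 lie on the minus strand of chromosome 10, 85161 bases apart, and share the same 10 nearest measured genes. Those 10 had a median log2 ratio of 0.23, none of them 2-fold different. The median of all 617 measured genes of chromosome 10 was 0.06. Bases upstream of each are shown because these neighbouring partner genes lay on opposite sides of 1, with the Col4a5 upstream bases for the basement membrane chain with a silent neighbour. All are from RefSeq windows on GRCm38.p6, trimmed to bases outside the gene in both RefSeq and GENCODE, at chr10:76726169-76726294 (minus strand), chr10:76623631-76623880 (minus strand) and chrX:141475169-141475369 (plus strand). The Col6a1 bases therefore do not adjoin its RefSeq start at 76726044, because GENCODE extends the gene to 76726168. Nor do the Col4a5 bases adjoin the start of its window at 141475419, because the RefSeq span of the gene begins at 141475370. Capitals mark a GC box (GGGCGG or CCGCCC) or a CCAAT box (CCAAT or ATTGG).
Col6a1: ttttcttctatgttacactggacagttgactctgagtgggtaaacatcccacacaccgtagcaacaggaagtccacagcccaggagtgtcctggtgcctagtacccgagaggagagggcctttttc
Col6a2: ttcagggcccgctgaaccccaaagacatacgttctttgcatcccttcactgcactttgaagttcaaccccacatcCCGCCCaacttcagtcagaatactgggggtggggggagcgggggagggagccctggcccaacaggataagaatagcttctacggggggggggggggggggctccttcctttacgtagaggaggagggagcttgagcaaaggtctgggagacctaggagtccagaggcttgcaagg
Col4a5: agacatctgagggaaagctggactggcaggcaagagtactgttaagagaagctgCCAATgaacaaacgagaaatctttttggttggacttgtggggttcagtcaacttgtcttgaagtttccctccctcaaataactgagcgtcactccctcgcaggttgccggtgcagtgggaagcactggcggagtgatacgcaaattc
In the full 250 bases before the start, Col6a2 held 1 GC box, Col4a5 held 1 GC box and 1 CCAAT box, and Col6a1 held neither. The Col4a5 GC box was not within the bases shown. Of all 32851 RefSeq windows of 250 bases, 32.7% held a GC box, 33.8% a CCAAT box and 12.4% a TATA box (TATAAA or TTTATA), on either strand and with overlaps allowed. None of these 3 collagen windows held a TATA box. Windows were matched for 35 of the 44 collagens, and not for Col1a1, Col2a1, Col4a3, Col5a2, Col9a3, Col12a1, Col14a1, Col22a1 and Col26a1. The 38 windows of the matched genes held a GC box in 57.9%, a CCAAT box in 34.2% and a TATA box in 13.2%.

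**Figure D4:**
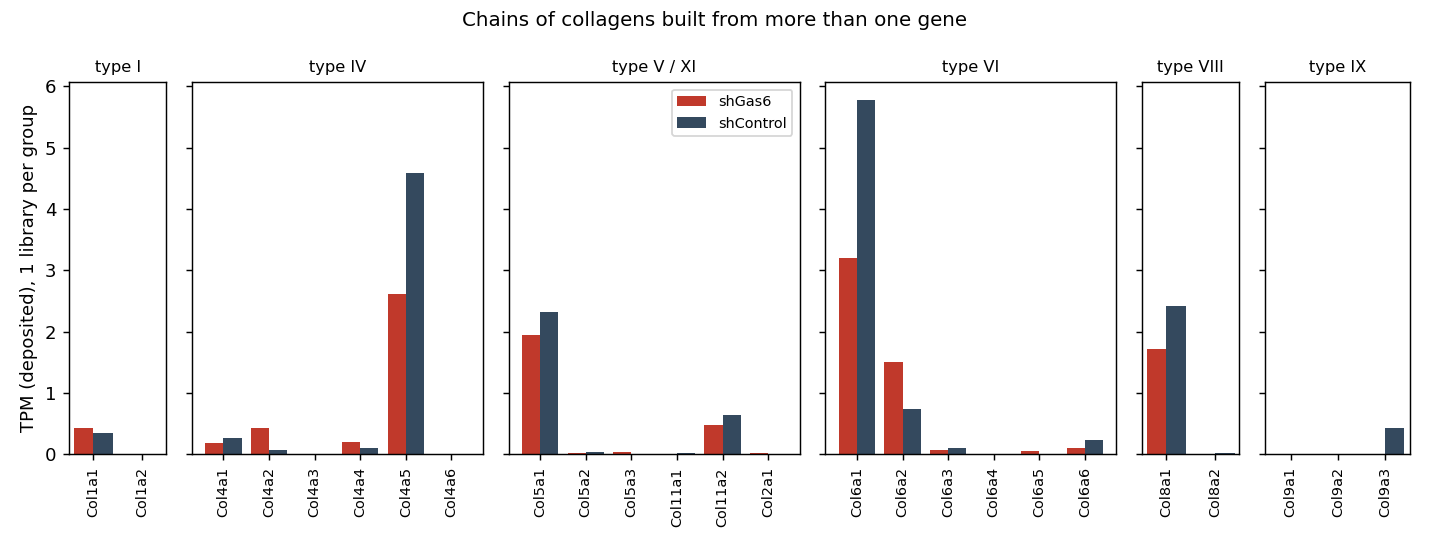
Deposited TPM of each chain of the collagen types built from more than 1 gene, in shGas6 (red, left) and shControl (dark blue, right), 1 library each. Within each type 1 chain was well above its partners in shControl, and Col6a2 and Col4a2 were higher in shGas6 while Col6a1 was lower.

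The multiplexins, which are proteoglycans of basement membranes, lay on opposite sides of 1. Col18a1 encodes type XVIII collagen, whose C-terminal fragment is endostatin. It was the most abundant collagen message in both libraries, with 3739 counts in shGas6 and 2511 in shControl, or 28.9 and 19.0 TPM, and was 1.46-fold higher in shGas6 (1.39 to 1.54). Col15a1, its closest relative, had 82 counts in shGas6 and 164 in shControl, or 0.610 and 1.20 TPM, 2.03-fold lower (1.55 to 2.69). The point estimates of Col15a1 and Col6a2 lie at the 2-fold mark and their intervals cross it. Col15a1 was under the mark with DESeq2 size factors and with the deposited TPM, and Col6a2 with upper quartile scaling. Col7a1, which forms the anchoring fibrils that fasten epithelial basement membrane to the stroma, had 583 counts in shGas6 and 903 in shControl, or 2.50 and 3.81 TPM, 1.58-fold lower (1.42 to 1.75). The 10 measured genes nearest to Col15a1 had a median log2 ratio of -0.04.

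Fibrillar collagens were low, and none of the 4 measured members differed by 2-fold, against 8.64% higher and 6.19% lower of all measured genes. The 11 genes summed to 18.1 CPM in shGas6 and 18.2 CPM in shControl, a ratio of 0.996 (0.908 to 1.09). Col1a1, the main chain of type I collagen, had 66 counts in shGas6 and 53 in shControl, and its interval included 1. Its partner Col1a2 had 0 counts in both libraries, and Col3a1, which co-assembles with type I fibrils, had 7 and 26, 3.78-fold lower in shGas6 (1.60 to 10.3) at under 1 CPM in both.

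Col5a1, a chain of the type V collagen that starts fibril assembly, had the highest TPM of the class in shControl at 2.33 TPM and stood at 1.95 TPM in shGas6. It had 412 counts in shGas6 and 493 in shControl, 1.22-fold lower (1.07 to 1.39). Its partners were nearly absent, with Col5a2 at 4 counts in shGas6 and 7 in shControl, and Col5a3 at 5 and 0. Col11a2, a type XI chain of cartilage fibrils, had 80 counts in shGas6 and 117 in shControl, 1.49-fold lower (1.11 to 2.0). Col11a1 had 0 and 4 counts, Col2a1 3 and 0, and Col24a1 7 and 7.

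Col27a1, a fibrillar collagen of developing cartilage, had the highest deposited TPM of the class in shGas6, while Col5a1 had more counts there. Col27a1 had 354 counts in shGas6 and 219 in shControl, 1.59-fold higher (1.34 to 1.89). In the deposited TPM it was at 2.39 in shGas6 and 1.10 in shControl, a ratio of 2.17. The log2 difference between that ratio and the count ratio was 0.45 for Col27a1, against a median of 0.05 over all measured genes, and 81 of 13367 genes had a difference that large or larger. Col27a1 thus passed 2-fold in the deposited TPM and not in the counts.

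Transmembrane collagens were not measured. Col17a1, which spans the basal membrane of epithelial cells at hemidesmosomes, had 5 counts in shGas6 and 0 in shControl. Col23a1 had 0 counts in shGas6 and 11 in shControl, at least 3.73-fold lower. Col25a1 had 2 and 3 counts, and Col13a1 had 0 in both libraries. Among the remaining types, the network-forming Col8a1 had 222 counts in shGas6 and 318 in shControl, or 1.72 and 2.42 TPM, 1.46-fold lower (1.22 to 1.74), while its partner Col8a2 had 0 and 2 counts and Col10a1 had 0 in both. Col26a1 had 14 counts in shGas6 and 0 in shControl, at least 4.59-fold higher, and Col28a1 had 6 in each. Over the 20 detected genes under 1 CPM, the highest level was 0.198 TPM in shGas6 (Col4a4) and 0.434 TPM in shControl (Col9a3), and the counting interval excluded 1 for 6 of them, against 22.6% of all 9177 detected genes under 1 CPM in both libraries.

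Most genes that modify, secrete, crosslink, bind or break down collagen differed by less than 2-fold. Over the 88 genes of 8 lists, 54 were measured, and their median log2 ratio was -0.02. Of the 54, 3 were at least 2-fold higher and 9 at least 2-fold lower, against 8.64% and 6.19% of all measured genes. Among those called, Tll1 passed 1 CPM in shGas6 alone, and P4ha3 and Lamb1 in shControl alone. Their inclusion thus already depended on a higher level in that library. The hydroxylation and glycosylation list summed to 1990.2 TPM in shGas6 and 1587.5 TPM in shControl, well above the collagens themselves, and had 10 of 12 measured genes above 1, against 49.1% of all measured genes, and a median of 0.32. P4ha2, an alpha subunit of prolyl 4-hydroxylase, was at 81.9 TPM in shGas6 and 34.9 TPM in shControl, 2.27-fold higher (2.16 to 2.39). Plod2, which hydroxylates lysines of collagen telopeptides, was at 40.1 and 20.0 TPM, 1.91-fold higher (1.81 to 2.02). P4ha3, a minor alpha subunit, was at 0.288 TPM in shGas6 and 1.66 TPM in shControl, 5.46-fold lower (3.32 to 9.44).

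In the folding and export list, 1 of 12 measured genes differed by 2-fold, and the median was 0.06. Creb3l1, an endoplasmic reticulum membrane transcription factor that drives Col1a1 in mouse osteoblasts, was at 3.58 TPM in shGas6 and 16.6 TPM in shControl, 4.77-fold lower (4.10 to 5.57). Serpinh1, the collagen-specific chaperone HSP47, had 4 counts in shGas6 and 0 in shControl. Lox, the founding lysyl oxidase, had 0 counts in both libraries (both genes named after their values were seen). Of 4 measured cross-linking genes, Loxl4 was 2.10-fold higher (1.97 to 2.25), at 19.96 TPM in shGas6 and 9.17 TPM in shControl. Tgm2, a transglutaminase, was 2.48-fold lower (2.40 to 2.55), at 66.6 TPM in shGas6 and 159.5 TPM in shControl. The median of that list was 0.12. Of 6 measured propeptide-processing genes (median -0.17), the procollagen C-proteinase gene Tll1 was 3.47-fold higher (2.46 to 4.996), at 1.17 and 0.271 TPM, and the meprin gene Mep1a 2.31-fold lower (2.05 to 2.59), at 5.45 and 12.1 TPM.

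**Figure D5:**
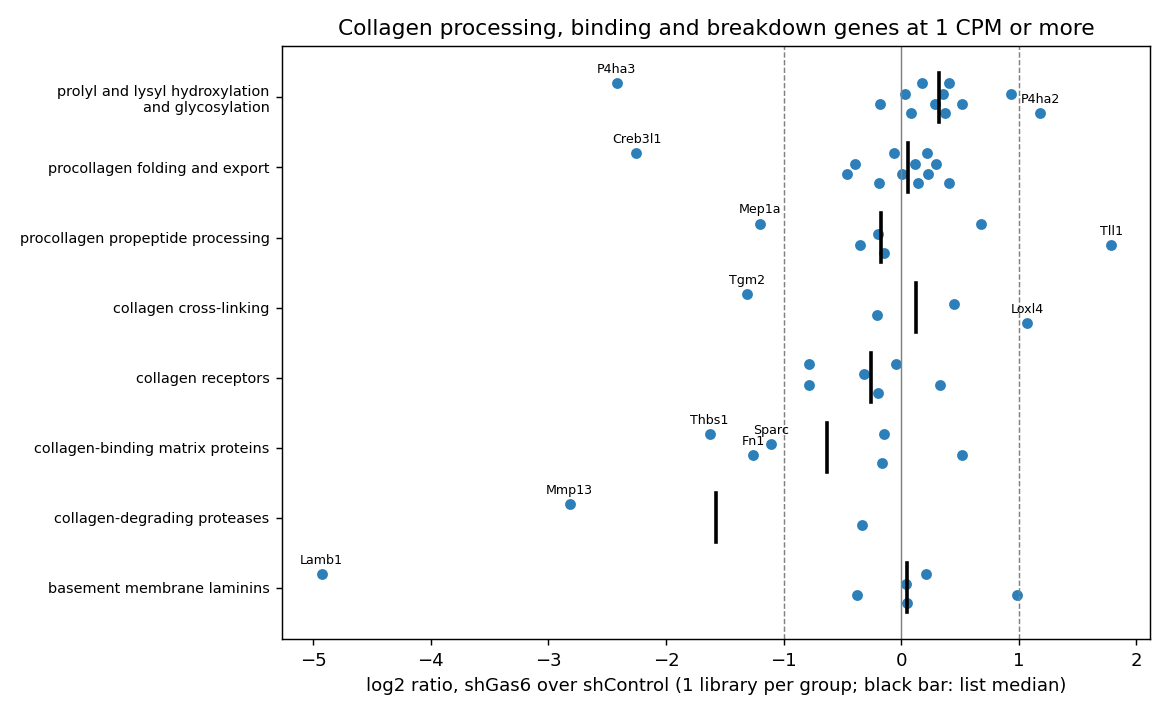
Log2 ratios, shGas6 over shControl, of the measured genes of 8 lists of collagen partners, 1 point per gene, with a black bar at each list median and dashed lines at 2-fold. Of the 54 genes 3 lay right of the 2-fold line and 9 left of it, with Lamb1 farthest left.

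None of 6 measured collagen receptors differed by 2-fold, against 8.64% higher and 6.19% lower of all measured genes. The median log2 ratio of these receptors was -0.25. Ddr2, a receptor tyrosine kinase for fibrillar collagen, was 1.72-fold lower (1.63 to 1.82), at 8.96 TPM in shGas6 and 14.9 TPM in shControl. Of 6 measured collagen-binding matrix proteins 3 passed 2-fold in the lower direction and 0 in the higher, against 6.19% and 8.64% of all measured genes, and their median was -0.63, with thrombospondin Thbs1 3.09-fold lower (2.75 to 3.49) and the other 2 being Fn1 and Sparc. Of 8 collagen-degrading proteases only Mmp13 and Mmp14 were measured. Mmp13, a collagenase of fibrillar collagens, was at 41.3 TPM in shGas6 and 282 TPM in shControl, and Mmp14 at 87.1 and 106 TPM, 1.26-fold lower (1.22 to 1.30). The list median was -1.58.

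Among basement membrane laminins, the polymers on which type IV collagen networks assemble, 1 of 6 measured genes differed by 2-fold. It was lower, against 6.19% lower and 8.64% higher of all measured genes. Lamb1, the beta 1 chain, had 0.193 TPM in shGas6 and 5.95 TPM in shControl, 31.0-fold lower (21.4 to 46.5). Lama5, Lamb2, Lamb3 and Lamc1 had log2 ratios between -0.37 and 0.21, and the list median was 0.05.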

How the data were processed

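Poly(A) RNA of YTN16 cells was sequenced with a stranded kit, per the labels' protocols, with 1 library each of shGas6 and shControl cells. The submitters' processing notes name Trimmomatic, a read trimmer, and GRCm38 (mm10). No source used here gives the aligner, counter, strand setting or annotation release. The authors deposited raw counts, FPKM values and TPM values per gene, per the file headers.

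Scaling used TMM (edgeR 4.0.16 in R 4.3.3) over all genes. The log2 ratio carries a pseudocount of 0.5 and decides the 2-fold calls. Folds are ratios of scaled counts without it, with exact Clopper-Pearson 95% intervals of the split of counts (scipy 1.17.1). These intervals cover counting error only and hold no spread between cultures. They treat every read as independent, so PCR copies could make them too narrow. The floor for 0 counts was 3 counts per library. Deposited TPM was used between genes. Names follow a rule that takes every collagen and up to 4 measured genes of each list. Members, classes, lists and rule were chosen with earlier results of these data known. Levels of neighbouring genes and start sites use RefSeq coordinates of GRCm38.p6. The procedure was run on simulated counts drawn with counting error only, around the mean level of each gene in these libraries. Its calls used the fold without a pseudocount, among genes with a mean of at least 1 CPM. The simulation held no PCR copies or spread between cultures, so it cannot speak to either. DESeq2 1.42.0 size factors, other scalings, pseudocounts, filters, thresholds and units were alternatives. Some genes that the rule takes are left out of the text.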

Additional observations from a re-analysis of the deposited data

How the results depend on the processing

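Alternatives were planned for the 2 counts (3 collagens at least 2-fold higher, 1 lower) and the median log2 ratio. No replicate could be left out, since each group is 1 library. No paired analysis was possible because each group has 1 library and no test was run. The count of 3 higher became 8 of 35 when every gene with at least 1 count was included, where the share of all such genes was 18.6%, and 1 of 9 (Col14a1) at 5 CPM, against 6.56% of all genes there. The count of 1 lower became 7 of 35 when every gene with at least 1 count was included, against 14.8% of all such genes. At a 1.5-fold threshold 4 of 15 were lower and 4 higher, against 12.6% and 16.05% of all measured genes. The count of lower was 0 with DESeq2 size factors, a pseudocount of 5, a 5 CPM filter, the deposited TPM or the deposited FPKM. Shares of all genes there were 5.96%, 6%, 4.19%, 5.62% and 5.61%, and the deposited units carried a pseudocount of 0.1. That count was also 0 at a 4-fold threshold, against 2.56%, and for the whole counting interval beyond 2-fold, against 4.46%. Col14a1 stayed past 2-fold under every alternative run, and Col4a2 under every one except the 5 CPM filter, which it did not pass. Col6a2 was not past 2-fold with upper quartile scaling, a pseudocount of 5, or either deposited unit with a pseudocount of 0.1. Its deposited TPM ratio without a pseudocount was 2.04. Of 90 values of the 15 measured collagens, 84 stayed inside the counting interval of that gene and 6 did not, and none of the called genes changed sign. The 6 were those of Col14a1 (5.52 with TPM, 5.01 with FPKM), Col4a2 (1.68 and 1.16) and Col27a1 (1.05 and 0.94), for which a pseudocount of 0.1 on low TPM and FPKM values shrinks the ratios of Col14a1 and Col4a2 by construction, while the cause for Col27a1 was not tested. Of 24 list medians, 23 stayed within the range given by counting error. Depth limits the 20 detected genes under 1 CPM, whose counts reached 36 in shGas6 and 46 in shControl.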

Other observations

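Some matrix genes were detected in 1 library alone, each under 1 CPM and named after their values were seen. Thbs2, a thrombospondin that binds collagen fibrils, had 34 counts in shGas6 and 0 in shControl, at least 11.1-fold higher. Tgfbi, a secreted protein that binds collagens and integrins, had 0 counts in shGas6 and 41 in shControl, at least 13.9-fold lower. Comp, a cartilage matrix protein that binds collagen fibrils, had 7 counts in shGas6 and 0 in shControl, at least 2.29-fold higher. Postn, a matrix protein of connective tissue, had 0 counts in shGas6 and 6 in shControl, at least 2.03-fold lower. Both directions thus occurred among these 4 genes. Their levels have no replicate check.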
